A study of Saccharomyces cerevisiae with 2 samples.

Results

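The tricarboxylic acid (TCA) cycle genes described here are CIT1, ACO1, IDH1, IDH2, KGD1, KGD2, SDH1, SDH2, FUM1 and MDH1, which encode enzymes of the mitochondrial cycle in budding yeast. They were found by gene name in the array's own annotation, with joined names of divergent promoters split into their 2 genes. All 10 were present, of 5474 genes named in coding probes. Together they held 86 of the 41775 yeast probes: 55 inside coding regions, 25 in promoters and 6 downstream. After probes marked as outliers were left out, 83 of the 86 were kept, as 54 coding, 24 promoter and 5 downstream probes. Each gene had at least 3 kept coding probes and at least 1 kept promoter probe, so every member entered the coding, promoter and promoter minus coding comparisons. IDH2, with 3 coding probes, was too sparsely covered for the comparisons of shape along the gene, which needed 4.

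In the TCA cycle, citrate synthase joins acetyl-CoA to oxaloacetate, and the citrate formed is isomerised, decarboxylated and oxidised back to oxaloacetate, in steps that feed electrons to the respiratory chain. The enzymes work in the mitochondrial matrix or, for succinate dehydrogenase, in the inner membrane, but all 10 genes lie in the nucleus and are packed into nucleosomes. In yeast, many genes of the cycle are known to be repressed by glucose and raised on respiratory carbon sources through the Hap2/3/4/5 activator complex, and CIT1, ACO1, IDH1 and IDH2 also through Rtg1 and Rtg3, the activators of the retrograde response. Histone H3 is a core subunit of every nucleosome, and active yeast promoters are known to carry fewer nucleosomes than coding regions.

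The study measured histone H3 along the genome in 1 strain, MDY510, which carries Myc-tagged H3; the labels do not mention whether untagged H3 was present. The cells were arrested with alpha factor, a mating pheromone that holds cells of the opposite mating type in G1, and galactose was not used for induction; the labels name no other carbon source. There was 1 group of 2 two-colour arrays on 1 slide, replicates 1 and 2, with no untreated or untagged control. On both arrays the labels give Cy5 to the anti-Myc precipitate (IP) and Cy3 to the sheared input chromatin, the whole cell extract (WCE), with no dye swap, so that dye and material cannot be told apart. All values are log2 ratios of Cy5 over Cy3, centred on the median of each array, with the SD over n = 2 arrays. Since no label states that the replicates were grown as separate cultures, p-values cover only array-to-array spread, possibly technical, and the number of arrays limits the precision. An exact test on 2 arrays could not fall below p = 0.5, so calls rest on limma's fit across all genes, at a Benjamini-Hochberg adjusted p of 0.05. For coding and promoter values that fit used a common spread in place of each member's own.

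Mitochondrial DNA carries no histones and was used to check which channel is which, and it contradicted the labels. Its 230 kept probes lay 4.77 above the nuclear probes on replicate 1 and 4.91 on replicate 2, a mean of 4.84 ± 0.10 or 28.7-fold, brighter in the channel labelled IP. With normexp background correction the difference was 0.90 ± 0.19, and with loess added 0.64 ± 0.58. The channels are therefore named by their labels only: "higher" below means brighter in the channel labelled IP, and if the channels were exchanged every sign would turn. Median spot brightness lay between 34318 and 36699 in both channels of both arrays, over local backgrounds of 64 to 87.5. Saturated spots made up 4.74% to 8.49% per channel and array. Of the 83 kept probes of the TCA cycle genes, 7 were saturated in at least 1 channel of 1 array, which compresses their ratio.

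Across the coding regions the 10 genes did not move one way. CIT1, SDH1 and IDH1 were higher, ACO1, KGD1 and IDH2 were lower, and KGD2, SDH2, FUM1 and MDH1 did not pass the test. Among all 4996 coding regions tested, 34.9% were called higher and 49.1% lower, so 3 of 10 in each direction is near or under the background. The median of the members was 0.02, against -0.04 over all coding regions. The members ranged from -0.29 to 0.28, with an SD among genes of 0.18, against 0.24 over all coding regions. The IDH1 call was lost with centring on the mode (0.088, adjusted p = 0.197 in limma) and the ACO1 call with medians over probes (-0.043, adjusted p = 0.138 in limma). SDH1 moved to 0.60 with 60-nt probes only and to 0.079 when adjusted for probe length, and IDH1 to 0.046 in the latter.

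The values on replicates 1 and 2 were 0.27 and 0.29 for CIT1, citrate synthase, a mean of 0.28 ± 0.02 that lay above 90.3% of coding regions. SDH1, the flavoprotein subunit of succinate dehydrogenase, gave 0.17 and 0.21, a mean of 0.19 ± 0.02. IDH1, a subunit of the NAD-dependent isocitrate dehydrogenase, gave 0.09 and 0.12, a mean of 0.11 ± 0.03. All of these were positive on both arrays, and their adjusted p-values in limma ran from 2.97e-38 to 1.15e-06.

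At the other end, IDH2, the partner subunit of IDH1, gave -0.29 on both arrays, a mean of -0.29 ± 0.0011 with 7.9% of coding regions below it. KGD1, the E1 subunit of the alpha-ketoglutarate dehydrogenase complex, gave -0.23 and -0.22, and ACO1, aconitase, gave -0.15 and -0.12. These 3 genes were negative on both arrays, with limma's adjusted p between 1.46e-40 and 2.86e-10. The remaining 4 lay close to 0. SDH2, the iron-sulfur subunit of succinate dehydrogenase, and MDH1, mitochondrial malate dehydrogenase, each had a mean of 0.03 ± 0.03, with adjusted p of 0.127 and 0.164. KGD2, the E2 subunit of the alpha-ketoglutarate dehydrogenase complex, had a mean of 0.01 ± 0.05 (adjusted p = 0.611 in limma), and FUM1, fumarase, -0.03 ± 0.04 (adjusted p = 0.21 in limma). The arrays differed in sign for KGD2 and FUM1. From the highest level to the lowest, neighbouring genes in this order differed by more than the SD of their difference over the arrays, except SDH2 and MDH1. That spread leaves out differences among the coding probes of a gene, whose SD ran from 0.10 to 0.44. The order also changed with the setting: with 60-nt probes only, SDH1 stood at 0.60 and CIT1 at 0.24.

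**Figure D1:**
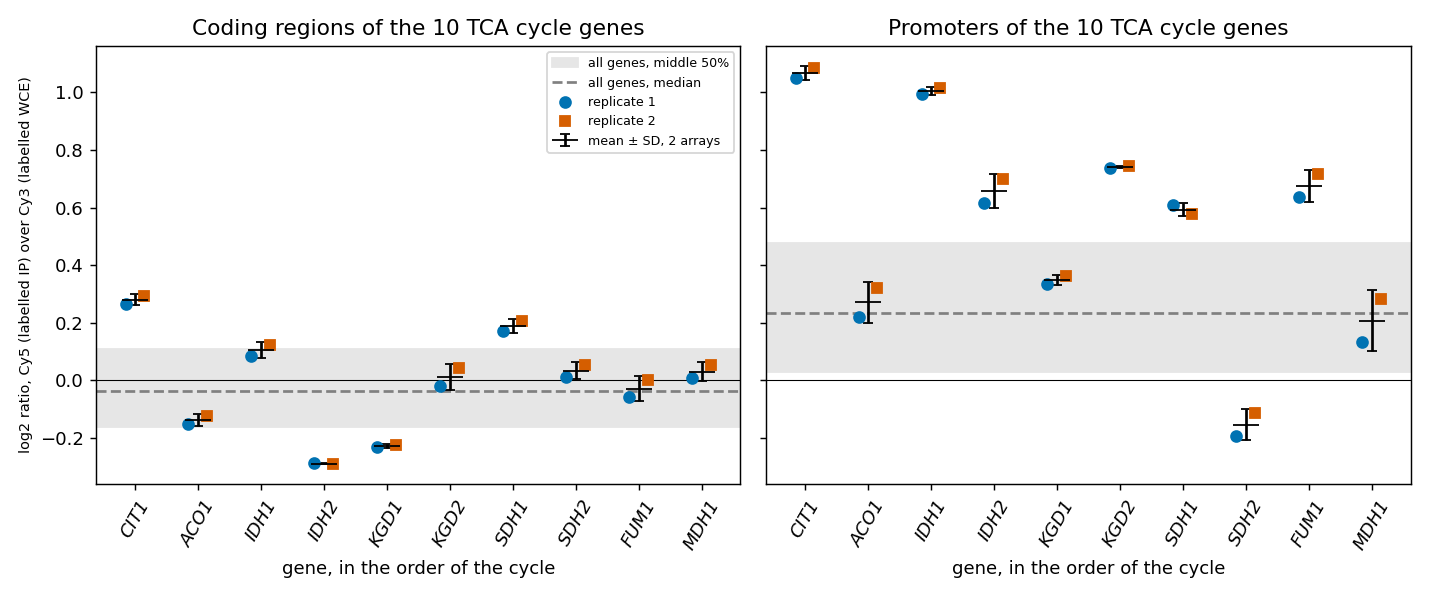
Coding and promoter log2 ratios of the 10 TCA cycle genes on each array, with the mean of both arrays and the median over all genes tested. Coding values spread on both sides of 0, from -0.29 (IDH2) to 0.28 (CIT1), whereas every promoter but that of SDH2 lies above 0.

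Promoters of the cycle genes were mostly higher. On both arrays 9 of 10 promoters were positive and passed the test, and SDH2 alone was called lower. Over the 5175 genes with a promoter value, 70.8% were called higher and 16.3% lower, so the count itself is only somewhat above the background. The level differed more: the median promoter of the members was 0.62, with 0.61 and 0.64 on the arrays, against 0.23 over all genes.

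CIT1 had the highest promoter value of the set, 1.05 and 1.08 on the arrays, a mean of 1.07 ± 0.03 or 2.09-fold, above 96.0% of promoters. This rank depended on the setting: without saturated probes IDH1 stood at 1.02 and CIT1 at 0.93, with medians over probes FUM1 at 0.889 and CIT1 at 0.879, and with the nearest probe only SDH1 at 1.08 and CIT1 at 0.53. IDH1 followed with 0.996 and 1.01, a mean of 1.01 ± 0.01 or 2.01-fold. A middle group was formed by KGD2 at 0.74 ± 0.0033, FUM1 at 0.68 ± 0.06, IDH2 at 0.66 ± 0.06 and SDH1 at 0.59 ± 0.02, each above 0.5 on both arrays. KGD1 at 0.35 ± 0.02 and ACO1 at 0.27 ± 0.07 were closer to the median of all promoters. MDH1, with 0.13 on replicate 1 and 0.28 on replicate 2, had the largest gap between the arrays, and its mean of 0.21 ± 0.10 lay under that median. SDH2 gave -0.19 and -0.11, a mean of -0.15 ± 0.05 (adjusted p = 2.92e-06 in limma), and so fell below 0 on both arrays. In this order only IDH2 and SDH1 differed by no more than the SD of their difference over the arrays. That spread leaves out differences among the probes of a promoter.

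Some of these values rest on few probes. The promoters of KGD2, IDH2, SDH2 and MDH1 had 1 kept probe each. For KGD2 the other promoter probe, at 0.045 ± 0.01, was left out as an outlier spot, and with it the promoter value would be 0.39. Divergent promoters, which lie between genes read in opposite directions, were higher than tandem ones in the whole genome, with medians of 0.29 over 2609 genes and 0.17 over 2463 genes. The 4 members with divergent promoters, IDH1, KGD2, SDH1 and FUM1, had a median of 0.71, and the 6 with tandem promoters a median of 0.31, so both lay above the corresponding value of all genes.

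Within a gene, the promoter was higher than the coding region for 9 of the 10 members, and lower for SDH2. The background of this comparison was 71.9% higher and 17.9% lower among 4576 genes, so the count itself is only somewhat above it. The differences were largest for both subunits of isocitrate dehydrogenase, at 0.95 ± 0.06 for IDH2, which was 0.90 on replicate 1 and 0.99 on replicate 2, and 0.90 ± 0.01 for IDH1. These 2 did not differ beyond the spread, although IDH1 reached its difference with a promoter of 1.01 and IDH2 with a coding region of -0.29. CIT1 followed at 0.79 ± 0.0057, KGD2 at 0.73 ± 0.04, FUM1 at 0.70 ± 0.01 and KGD1 at 0.58 ± 0.01. Of these, KGD2 and FUM1 did not differ beyond the spread either. ACO1 and SDH1 could not be separated, at 0.41 ± 0.05 and 0.40 ± 0.05. MDH1 gave 0.18 ± 0.07, and SDH2 gave -0.19 ± 0.03, with -0.21 and -0.17 on the arrays (adjusted p = 0.000217 in limma). The median over the members was 0.64, against 0.25 over all genes.

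With 60-nt probes only, this difference was called higher for 5 and lower for 3 of the 8 members left, and its median of 0.36 lay nearer to the 0.28 of all genes. It then turned to -0.38 for ACO1 and -0.21 for SDH1, where few probes were left. ACO1 lost its promoter probe at -420 bp (1.13 in the main setting). It kept only the one at -164 bp (-0.59), with processed intensities of 13.6 to 28.2. SDH1 lost its promoter probe at -263 bp (1.08). Of its coding probes, only the first and the one at 1442 bp were left, at 0.92 and 0.20 in the main setting. The ratio moved with probe length: coding probes of 60 nt had a median of -0.10 over the genome and shorter ones 0.03. Of the members' coding probes, 44.4% were 60 nt long, against 64.8% of all coding probes, and the part of probe length in the levels was not tested beyond these settings. With each probe taken relative to the mean of all probes of its length, a setting chosen after the data were seen, the median difference was 0.70 against 0.27 and the call was higher for 9 and lower for 1, whereas the coding counts became 3 higher and 5 lower.

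The calls depended on the processing. The main values came from background-subtracted, detrended and dye-normalised intensities, whereas normexp started from raw spot intensities and local backgrounds. Which of these steps made the difference was not tested. With normexp, limma called 0 members for coding, promoter or promoter minus coding ratios; at an unadjusted p under 0.05 it gave 0, 6 and 4 members, all higher. The promoter values of all 10 members were positive there, from 0.23 to 0.48 with a median of 0.32 against 0.14 over all genes, SDH2 having turned from -0.15 to 0.28. With loess added, limma again called 0 members, and the median promoter was 0.22 against 0.09.

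**Figure D2:**
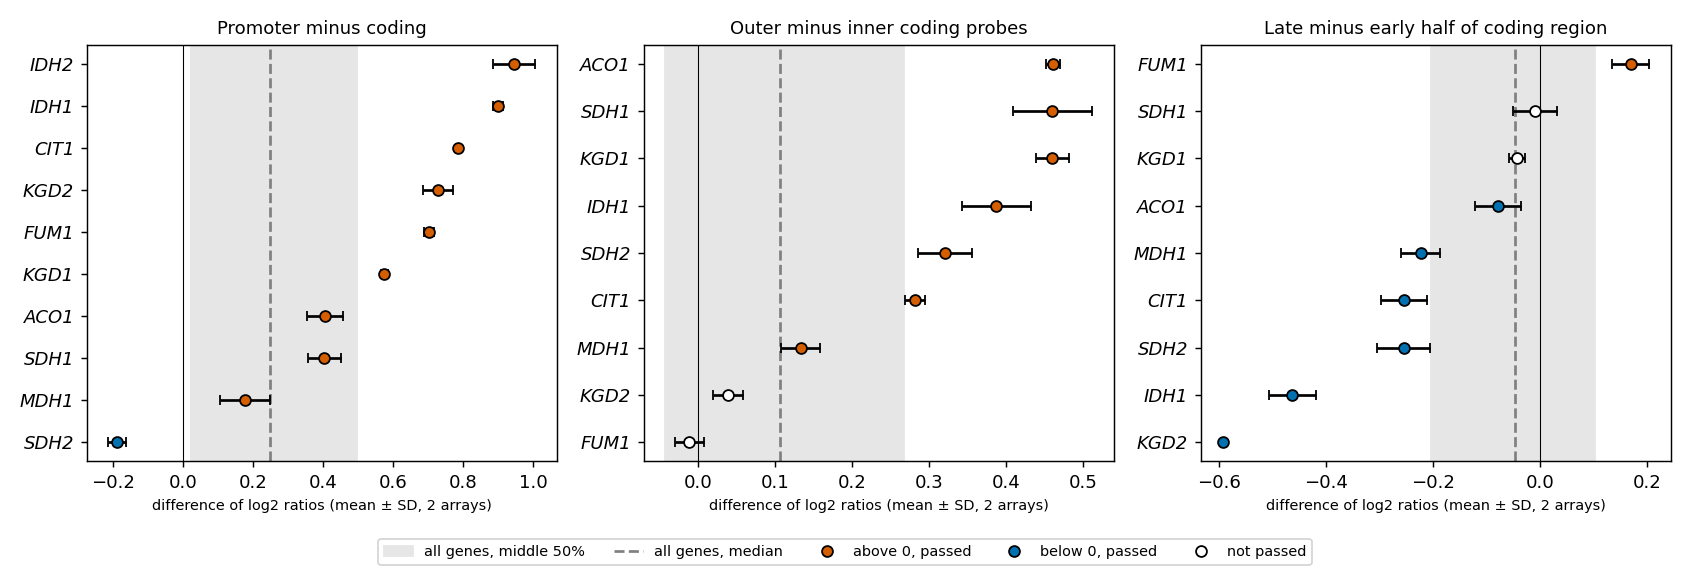
Promoter minus coding, outer minus inner and later minus earlier coding log2 differences of each TCA cycle gene. Points are means with the SD over the arrays, coloured by limma's call. The dashed line and grey band give the median and interquartile range of all genes tested. SDH2 is the only gene with a negative promoter minus coding difference, and IDH2 has no value in the comparisons of shape.

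Probe by probe, the members' values repeated closely between the arrays and varied widely along each gene. The SD between arrays of a member's probe was 0.04, and the SD among coding probes of 1 gene ran from 0.10 in FUM1 to 0.44 in SDH1. Of the 54 coding probes 24 were called higher and 19 lower, where the background was 30.7% and 45.4% of 29599 probes. Of the 24 promoter probes 22 were higher and 2 lower, against 66.3% and 20.1% of 9074. Of the 5 downstream probes 4 were higher and 1, at IDH2, was lower, against 39.5% and 43% of 1862. Distances below run from the midpoint of each gene's first coding probe to the midpoint of the probe named, in the direction of transcription. Coordinates are those of the array annotation, in a genome build that was not given in the sources used here.

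**Figure D3:**
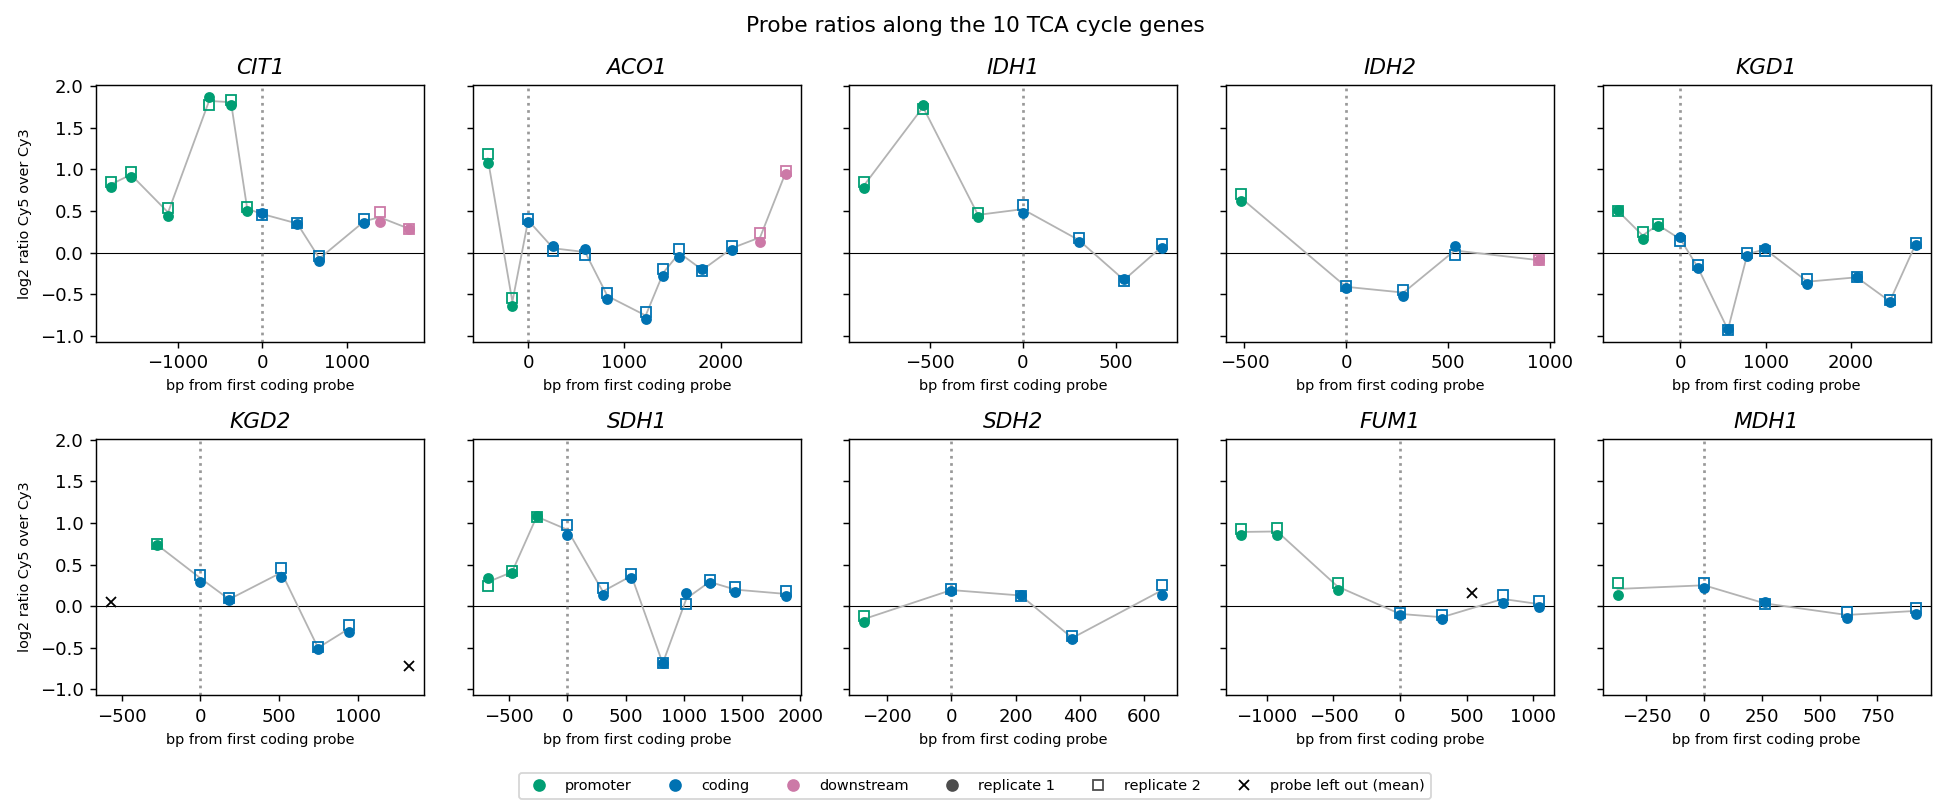
Log2 ratio of every probe along the 10 genes on both arrays, against the distance in bp from the first coding probe in the direction of transcription. Upstream peaks stand out at CIT1 and IDH1, several low coding probes at KGD1 and ACO1, and a single low coding probe at SDH1.

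CIT1 lies on chromosome 14, with coding probes from 629763 to 631031 and 6 promoter probes from 631148 to 632817, all of them higher. The peak was formed by the probes at -627 bp, with 1.87 and 1.77 on the arrays, and at -368 bp, with 1.78 and 1.84. Their means of 1.82 ± 0.07 and 1.81 ± 0.04 correspond to 3.54-fold and 3.50-fold, and the first of them was saturated in Cy5 on both arrays. Nearer to the gene the ratio was 0.53 ± 0.03 at -176 bp, and the first coding probe read 0.46 ± 0.01. The coding probe at 679 bp, at -0.07 ± 0.05, did not pass, whereas the last was again at 0.38 ± 0.04. Both downstream probes were higher as well, at 0.43 ± 0.08 and 0.29 ± 0.0049.

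ACO1 on chromosome 12, with coding probes from 735250 to 737431, had promoter probes of opposite sign. The one at -420 bp gave 1.08 and 1.19, a mean of 1.13 ± 0.07, and the one at -164 bp gave -0.64 and -0.54, a mean of -0.59 ± 0.07. The latter was the dimmest probe of the set, with processed intensities of 13.6 to 28.2, where the former had 915 to 2245. The promoter value of 0.27 is therefore the mean of a high and a low probe, and it became -0.59 when only the nearest probe was used. Inside the gene the ratio began at 0.39 ± 0.03, fell to -0.52 ± 0.05 at 824 bp and -0.76 ± 0.06 at 1221 bp and returned to 0.06 ± 0.03 at the last probe. The farther downstream probe, at 2677 bp, stood at 0.97 ± 0.02.

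IDH1 and IDH2 encode the 2 subunits of 1 enzyme, and their coding regions differed by 0.39 ± 0.03, with IDH1 higher. Their promoters differed by 0.35 ± 0.05 in the same direction. IDH1, on chromosome 14 from 558021 to 558829, peaked at -535 bp with 1.78 and 1.72, a mean of 1.75 ± 0.04 or 3.36-fold, between 0.81 ± 0.05 and 0.45 ± 0.03 at the neighbouring promoter probes. Its coding ratio went from 0.52 ± 0.06 at the first probe to -0.33 ± 0.02 at 544 bp. The promoter is shared with NCE103, carbonic anhydrase, whose coding region was at 0.10 ± 0.03. IDH2, on chromosome 15 from 580546 to 581138, began at -0.41 ± 0.02 and -0.48 ± 0.05, and its last coding probe, at 0.03 ± 0.08, was saturated in both channels on both arrays. Without saturated probes the IDH2 coding value was -0.43.

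KGD1 on chromosome 9, with coding probes from 122841 to 125654, had 3 promoter probes between 0.21 and 0.51 and no upstream peak. Its lowest coding probe, at 556 bp, gave -0.92 and -0.93, the lowest value among the members' probes, at 0.526-fold. Lower values recurred at 1488 bp, -0.35 ± 0.04, and at 2454 bp, -0.59 ± 0.02, whereas the probes at 784 and 991 bp did not pass the test. KGD2 on chromosome 4, from 753978 to 754979, split into an earlier and a later stretch. Its coding probes read 0.34 ± 0.06, 0.08 ± 0.01 and 0.41 ± 0.08 and then fell to -0.50 ± 0.02 at 746 bp and -0.27 ± 0.05 at the last. KGD1 was thus lower than KGD2 by 0.24 ± 0.04 in the coding region, a log2 difference of -0.24, and by 0.39 ± 0.01 in the promoter, a difference of -0.39. NUM1, a cell cortex protein that shares the KGD2 promoter, had a coding value of -0.27 ± 0.0084 over 22 probes.

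SDH1 on chromosome 11, from 169188 to 171120, had its highest promoter value next to the gene, 1.08 ± 0.0063 at -263 bp. The first coding probe was the highest coding probe of the set, 0.86 and 0.98 on the arrays. Of its 8 coding probes 7 were higher, and the one at 818 bp gave -0.69 on both arrays. AVT3, a vacuolar amino acid transporter that shares the promoter, had a coding value of -0.08 ± 0.03. SDH2 on chromosome 12, from 53242 to 53956, had 3 higher coding probes between 0.13 and 0.19 and a low one of -0.38 ± 0.03 at 376 bp. Because 2 of its higher probes were saturated, the coding value turned to -0.08 without saturated probes. Its only promoter probe, at -270 bp, read -0.15 with intensities of 248 to 282, among the lower ones of the set. SDH1 exceeded SDH2 by 0.15 ± 0.0040 in the coding region and by 0.75 ± 0.08 in the promoter.

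FUM1 on chromosome 16, from 47713 to 48816, was the flattest of the members, with coding probes between -0.13 and 0.09. Its promoter, shared with KEL3, a kelch-repeat protein with a coding value of 0.08 ± 0.02, read 0.89 ± 0.04 and 0.90 ± 0.06 at the far probes and 0.24 ± 0.06 at -468 bp. MDH1 on chromosome 11, from 278737 to 279712, began at 0.25 ± 0.05 and fell to -0.11 ± 0.06 at 618 bp, and 2 of its 4 coding probes did not pass. No kept coding probe of either gene was as low as the lowest of KGD1, ACO1 or SDH1.

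Upstream, the position of the peak differed among the members. In 4 of the 6 genes with both probes kept, CIT1, ACO1, IDH1 and FUM1, the second probe upstream exceeded the nearest by 1.28 ± 0.01, 1.72 ± 0.0035, 1.30 ± 0.07 and 0.66 ± 0.0033. In KGD1 and SDH1 it was lower, by differences of -0.13 ± 0.04 and -0.67 ± 0.02. The median step was 0.97, against 0.06 over 3206 genes, of which 55.4% stepped up. These steps are given as a description, with no test. That of ACO1 includes the dim probe at -164 bp, with processed intensities of 13.6 to 28.2. The promoters of IDH1, SDH1 and FUM1 are divergent, so their upstream probes also belong to the partner gene.

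Coding ends were higher than the middle of the gene in most members. The outer probes, the first and last of each coding region, were called higher than the inner ones in 7 of 9 genes and lower in 0. The background was 59.9% higher and 23.7% lower of 3454 genes, so the count itself is only somewhat above it. At an unadjusted p under 0.05, limma also gave 7 higher and 0 lower. With normexp, limma called 0 members in either direction, and the unadjusted counts were 0 higher and 1 lower; with loess added, it again called 0, and the unadjusted counts were 2 higher and 0 lower. ACO1, SDH1 and KGD1 had the largest differences, each 0.46, with an SD over the arrays of 0.0091, 0.05 and 0.02. IDH1 gave 0.39 ± 0.04, SDH2 0.32 ± 0.04, CIT1 0.28 ± 0.01 and MDH1 0.13 ± 0.03. KGD2 at 0.04 ± 0.02 and FUM1 at -0.01 ± 0.02 did not pass (adjusted p = 0.142 and 0.676 in limma). The members' median was 0.32, against 0.11 over all genes.

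Most members were also lower late in the gene than early. The later minus the earlier coding probes were negative and past the test in 6 of 9 genes and positive in FUM1. The background was 49% lower and 32.7% higher of 3443 genes, so the count itself is only somewhat above it. KGD2 had the largest change, -0.59 on both arrays, with 1.3% of genes below it. IDH1 gave -0.43 and -0.49, a mean of -0.46 ± 0.04. SDH2 at -0.26 ± 0.05, CIT1 at -0.25 ± 0.04, MDH1 at -0.22 ± 0.04 and ACO1 at -0.08 ± 0.04 were lower on both arrays. FUM1 was higher by 0.17 ± 0.03. KGD1 and SDH1, at -0.04 ± 0.02 and -0.01 ± 0.04, did not pass (adjusted p = 0.0935 and 0.695 in limma). ACO1 turned to 0.25 without its saturated probes. With normexp, and with loess added, limma called 0 members in either direction here too, with unadjusted counts of 0 lower and 0 higher for the former and 2 lower and 0 higher for the latter.

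Averaged over the 9 members with at least 4 coding probes, the first coding probe stood at 0.35 ± 0.03 (SD over arrays), against 0.06 ± 0.02 over 3443 genes. The second was at 0.07 ± 0.01 against -0.05 ± 0.02, the second-last at -0.21 ± 0.03 against -0.08 ± 0.02 and the last at 0.07 ± 0.04 against -0.03 ± 0.02. Among the 9 members the first coding probe ran from -0.09 in FUM1 to 0.92 in SDH1. Coding levels also moved with how many probes a gene has, from a median of 0.12 in genes with 2 kept coding probes to -0.12 in those with 9. ACO1, with 9 coding probes and a mean of -0.14, lay just under that last median, and KGD1, also with 9, at -0.23 lay below the lower quartile of such genes, -0.22, whereas SDH1, with 8 and a mean of 0.19, lay well above the -0.10 of genes with 8. IDH2, with only 3 probes, lay far below the 0.06 of genes with 3.

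**Figure D4:**
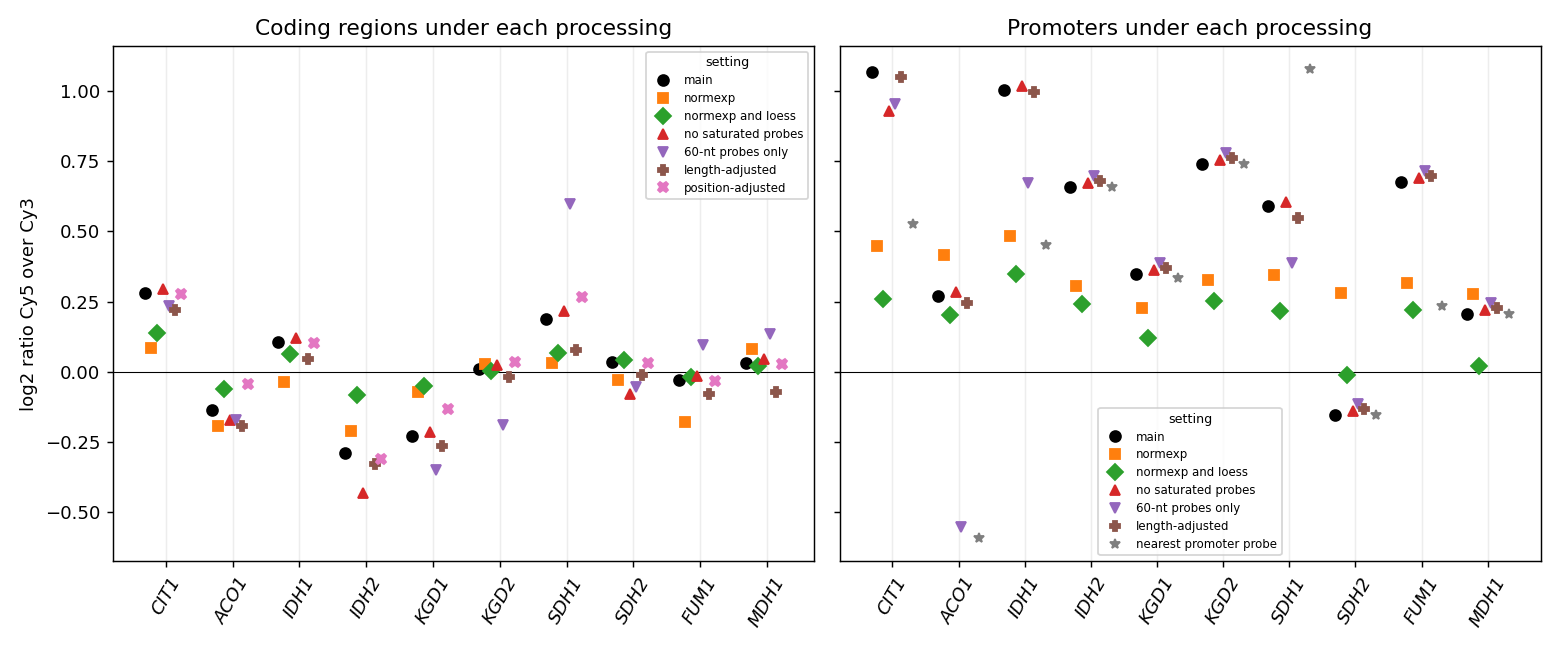
Coding and promoter log2 ratios of the 10 genes under the main and other processing settings, with a separate marker for each setting. The members' median promoter value falls from 0.62 to 0.32 with normexp and to 0.22 with loess added. The ACO1 promoter turns to -0.55 with 60-nt probes only and to -0.59 at the nearest probe.

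Other genes around the cycle were taken from lists of related functions, whose counts stand against the same backgrounds, 34.9% higher and 49.1% lower for coding regions and 70.8% higher and 16.3% lower for promoters. Among 13 measured isozymes and further subunits, 9 coding regions were higher, 3 were lower and 1 did not pass, with a median of 0.20; 12 promoters were higher and 1 was lower, with a median of 0.45. Their extremes were IDP2, the cytosolic isocitrate dehydrogenase, at 0.35 and MDH2, the cytosolic malate dehydrogenase, at -0.20 in coding regions, and CIT2, the peroxisomal citrate synthase, at 1.02 and SDH4, a membrane anchor of succinate dehydrogenase, at -0.07 in promoters. The pyruvate dehydrogenase genes, which supply acetyl-CoA, differed from this: of 4 promoters 1 was higher, 2 were lower and 1 did not pass, with a median of -0.03, from -0.43 in PDB1 to 0.26 in PDA1. Of their coding regions 1 was higher and 3 were lower, from 0.31 in PDX1 to -0.16 in PDA1. The PDB1 and PDA1 promoters had 1 kept probe each, as had that of SDH4, and no pyruvate dehydrogenase promoter had more than 2. The difference between these lists was not tested.

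Of 7 genes of the glyoxylate shunt and anaplerosis, 3 coding regions were higher and 4 lower, between MAE1, malic enzyme, at 0.30 and PYC1, pyruvate carboxylase, at -0.17. All 7 of their promoters were higher, with a median of 0.51, from 0.16 in PCK1 to 0.95 in MAE1. The 7 mitochondrial carriers had 5 higher coding regions, 1 lower and 1 that did not pass, and all 7 promoters were higher, with a median of 0.48, from OAC1 at 0.12 to DIC1, the dicarboxylate carrier, at 0.85. Among 9 regulators, 6 promoters were higher, 1 was lower and 2 did not pass, with a median of 0.24. Of their 8 measured coding regions 3 were higher, 3 were lower and 2 did not pass, from -0.47 in MKS1 to 0.45 in HAP3.

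The genes most like the members in both levels were found by the distance of their coding and promoter values, over both arrays, from the members' medians. QRI1 lay at a log2 distance of 0.0044, CDC6 at 0.01 and SIR2 at 0.01, of 4566 genes compared. Within 0.1 of those medians lay 105 genes, so this position is not a rare one.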

How the data were processed

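Spot intensity values of 2 arrays (design 014810) were background-subtracted, detrended and linearly dye-normalised by the authors with Agilent Feature Extraction 9.1.3.1, per the file headers. The authors' deposited log2 values equal the log2 ratio of processed Cy5 over Cy3 within 5.00e-06, uncentred. Per the labels' protocols, at most 75 ng of precipitated DNA entered linear amplification, and 3 µg of the product was labelled.

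Log2 ratios were centred on each array's median over kept probes, with no loess. Probes marked non-uniform or outlying in either channel on either array, or with Cy3 not well above background, were left out, which kept 40890 of 41775 with r = 0.992 between arrays. Saturated spots stayed. Gene values are means over at least 2 coding or 1 promoter probe; a divergent promoter counts for both genes. Outer minus inner compares the first and last coding probe with the rest, and later minus earlier compares both sides of the middle, in genes with at least 4. Strand and names came from the R64 gene table. Values were tested against 0 with limma 3.58.1 (lmFit, eBayes) in R 4.3.3 across all genes, with Benjamini-Hochberg adjustment at 0.05. For coding and promoter values the fit gave every member a common SD (0.03 and 0.05) in place of its own. All members thus had the same standard error, 0.021 for coding and 0.032 for promoter values, so small values pass. Their p-values in these 2 measures follow the mean alone, not the gene's own agreement between arrays. For the differences, variances were only drawn towards a common one. The fits were also run on simulated arrays with independent noise and few shifted genes. In the real data most genes passed and both arrays share a slide, so the simulation does not vouch for the calls.

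All members, their divergent partners, the highest and lowest gene of each list and the 3 most alike genes are named. Members and lists were chosen with earlier results of these data known. Alternatives were the mode for centring, normexp (offset 50) alone and with loess, no probe filter, no saturated probes, 60-nt probes only, medians over probes, position-adjusted coding probes, the nearest promoter probe, the uncentred deposited table, and each array alone. Promoter motifs were not searched, since no sequence was used here.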

Additional observations from a re-analysis of the deposited data

How the results depend on the processing

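Counts are of members passing limma's test. With normexp, 0 were called higher and 0 lower for every gene measure; all genes gave 8 higher and 2 lower coding regions, 0 and 0 promoters, 44 and 1 promoter minus coding differences, and 0 and 0 for both measures of shape. Among probes, normexp gave 2 members higher and 0 lower, and 260 and 115 overall. At an unadjusted p under 0.05, members higher and lower were 0 and 0 for coding, 6 and 0 for promoters, 4 and 0 for promoter minus coding, 0 and 1 for outer minus inner and 0 and 0 for later minus earlier. Normexp with loess gave 0 for members, genes and probes except 46 and 8 genes overall for outer minus inner; unadjusted, members were 1 and 0, 0 and 0, 5 and 0, 2 and 0, and 0 and 2 in the same order. The mitochondrial check moved to 0.90 and 0.64 with these, 4.43 with no filter and 3.66 without saturated probes.

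Higher coding members became 5 with the uncentred table, medians over probes, no saturated probes or position adjustment, and lower ones 5 with length adjustment; mode centring left 1017 coding regions higher overall. Higher coding members fell to 2 with the mode, where IDH1 lost its call, and lower ones to 2 with medians, where ACO1 did. With 60-nt probes only, 2 of 10 promoters were lower, promoter minus coding was 5 higher and 3 lower of 8, outer minus inner 1 higher and 0 lower of the 2 members with a value (1221 and 528 overall), later minus earlier 1 higher and 1 lower of 2 (737 and 966 overall) and probes 32 higher and 12 lower of 48. The SDH1 coding value was 0.60 there. The nearest promoter probe gave 2 lower promoters and 2 lower differences. Without the filter outer minus inner had 1 lower, and without saturated probes later minus earlier had 2 higher.

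Signs turned as follows. In coding regions IDH1 was -0.037 and SDH2 -0.030 with normexp; KGD2 was -0.0059 with the mode, -0.19 with 60-nt probes and -0.019 length-adjusted; SDH2 was -0.080 without saturated probes, -0.055 with 60-nt probes and -0.0097 length-adjusted; FUM1 was 0.0071 with no filter and 0.095 with 60-nt probes; MDH1 was -0.011 with medians and -0.070 length-adjusted. In promoters ACO1 was -0.55 with 60-nt probes and -0.59 at the nearest probe, and SDH2 0.28 with normexp. For promoter minus coding ACO1 was -0.38 and -0.45 in those settings, SDH1 -0.21 with 60-nt probes, SDH2 0.31 with normexp and MDH1 -0.00053 with loess. For outer minus inner KGD2 was -0.38 with normexp, -0.047 with loess and -0.048 with medians, and FUM1 0.0017 with loess. For later minus earlier ACO1 was 0.25 without saturated probes, KGD1 0.16 with normexp and 0.31 with 60-nt probes, SDH1 0.051 with loess, and SDH2 0.080 and MDH1 0.055 with normexp. The cause was not tested, except that 60-nt and nearest-probe settings leave fewer probes. Each array alone, with no test, gave the sign of the mean for every member value that passed. Length adjustment, the probe counts and the settings of the mitochondrial check were chosen after seeing the data.

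No paired analysis was possible because the series holds 1 group. Both arrays share 1 slide and dye orientation, so slide and dye effects cannot be told apart from the signal.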

Other observations

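The highest promoter among the regulators belonged to HAP4, which encodes the limiting activator subunit of the Hap2/3/4/5 complex. Its 6 promoter probes averaged 2.06 and 2.12 on the arrays, a mean of 2.09 ± 0.04, whereas its coding region stood at -0.21 on both. The ratio rose from 2.03 ± 0.13 at 230000 on chromosome 11 to 3.62 ± 0.03, or 12.3-fold, at the probe from 230762 to 230818, and fell to 1.22 ± 0.00093 at 231261 and 0.23 ± 0.03 at 231582, next to HAP4. All but the last of these probes lie in the divergent promoter shared with KTI12. The regulators' lowest promoter was that of RTG2, at -0.22.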
